A study of Rattus norvegicus with 8 samples.

Results

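A group of 9 C-type lectin receptor genes of myeloid cells was followed in peritoneal macrophages of rats injected with carbon nanotubes. They were Clec7a (Dectin-1), Clec4d (MCL), Clec4e (Mincle), Clec12a (MICL), Clec10a (MGL) and the DCIR genes Clec4a, Clec4a1, Clec4a2 and Clec4a3. These 9 genes were chosen by symbol, out of 23487 genes in the count table, when their values in the same comparison were already known. Their levels and fold changes are therefore a description and carry no test.

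C-type lectin receptors are surface proteins with a carbohydrate-recognition fold that bind sugars, lipids or proteins of microbes and of damaged cells. Activating members, such as Dectin-1 and Mincle, signal through the kinase Syk and the adaptor CARD9, either from a tyrosine motif of their own or through the adaptor chain FcRγ (Fcer1g). Inhibitory members, such as MICL and several DCIR proteins, carry a motif that recruits the phosphatases SHP-1 (Ptpn6) and SHP-2 (Ptpn11).

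Macrophages were sorted from the peritoneal cavity of female Wistar rats, 8 weeks old, 15 days after injection of multi-walled carbon nanotubes. The 4 rats of one group received CNT-7 (MWCNT-XNRI-7), the material that the study describes as mesotheliomagenic, and carry the numbers 3, 5, 10 and 11. The 4 rats of the other group, rats 1, 2, 12 and 13, received the tangled CNT-T, described as non-mesotheliomagenic. The comparison asks how macrophages that repopulate the cavity differ between both materials. No untreated rat is among the samples analysed here, so a value is high or low only relative to the other material. Each library is the sorted population of 1 rat, and in such bulk RNA fewer cells of a type and less RNA per cell cannot be told apart.

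The libraries held between 27195157 and 33732981 counts, and 3 counts corresponded to at most 0.109 CPM, the number of counts scaled to 1000000 per library. Levels are CPM after TMM scaling, and differences are log2 fold changes, CNT-7 over CNT-T, with their standard error (SE). A gene was called at an adjusted p under 0.10 in the quasi-likelihood test of edgeR. Of 12124 genes tested, 27.9% were called, with 13.9% higher and 14.0% lower in CNT-7. In 24.9% of them all 4 rats of one group lay above all 4 of the other.

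All 9 receptor genes passed the filter on low counts. Of these, 6 were called, all higher in CNT-7, namely Clec7a, Clec4e, Clec10a, Clec4a1, Clec4a2 and Clec4a3. The same 6 did not overlap between the groups. Clec4d, Clec4a and Clec12a overlapped and were not called. The median log2 fold change of the 9 genes was 0.85, beside 0.0083 for all genes tested, and the range was 0.12 to 2.47. Since the genes were chosen with these values known, nothing is read from the count against the 27.9% of all genes.

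The sequence upstream of 4 of the receptor genes is shown because these genes lie in one cluster on chromosome 4 and span the range of fold changes. They are Clec4e and Clec4a3, with the largest fold changes, and Clec4a2 and Clec4a, whose upstream sequences were most alike while only the first was called. Each run is the 250 bases before the annotated start of the gene in RefSeq (assembly GRCr8), 5′ to 3′ on the strand of the gene. The windows are chr4:158298468-158298717 on the minus strand for Clec4e, and, on the plus strand, chr4:157886508-157886757 for Clec4a3, chr4:157934346-157934595 for Clec4a2 and chr4:158100365-158100614 for Clec4a. Capitals mark a PU box (GAGGAA, or TTCCTC on the other strand), the core bound by the myeloid factor PU.1, or a C/EBP match (TTGCNNAA, either strand).
Clec4e: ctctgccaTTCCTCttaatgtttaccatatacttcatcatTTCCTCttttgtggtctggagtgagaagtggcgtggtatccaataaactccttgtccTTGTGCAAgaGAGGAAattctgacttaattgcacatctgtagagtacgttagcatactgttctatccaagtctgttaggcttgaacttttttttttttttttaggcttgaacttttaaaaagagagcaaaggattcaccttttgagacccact
Clec4a3: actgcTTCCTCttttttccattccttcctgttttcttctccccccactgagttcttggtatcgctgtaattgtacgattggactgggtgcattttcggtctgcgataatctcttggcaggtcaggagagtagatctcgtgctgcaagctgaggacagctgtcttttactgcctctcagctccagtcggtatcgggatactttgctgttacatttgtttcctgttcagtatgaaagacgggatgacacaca
Clec4a2: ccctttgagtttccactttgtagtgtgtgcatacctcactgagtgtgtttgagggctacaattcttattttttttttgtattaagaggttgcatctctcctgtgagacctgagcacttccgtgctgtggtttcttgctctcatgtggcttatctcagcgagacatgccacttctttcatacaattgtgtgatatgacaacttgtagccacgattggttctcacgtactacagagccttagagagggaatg
Clec4a: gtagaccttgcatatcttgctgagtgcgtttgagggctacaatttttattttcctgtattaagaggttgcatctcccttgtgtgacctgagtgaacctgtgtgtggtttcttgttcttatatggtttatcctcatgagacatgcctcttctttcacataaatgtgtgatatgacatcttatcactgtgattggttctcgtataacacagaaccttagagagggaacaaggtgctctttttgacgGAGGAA

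Clec4e held 3 PU boxes and 1 C/EBP match, which starts at position -153 from the start of the gene and does not overlap a PU box. A PU box each was found in Clec4a3 and in Clec4a, in the latter directly before the start, whereas Clec4a2 held neither motif. In an end-to-end alignment that allowed gaps, Clec4a2 and Clec4a had 184 identical bases of 250 (73.6%). The next closest pair of receptor genes had 60%. Of the 9 receptor genes, 8 were found in the promoter table, all except Clec10a. A PU box was found in 6 of these 8, and in 23.3% of all 33469 promoters. A C/EBP match was found in 2 of the 8 (Clec4e and Clec12a) and in 9.22% of all promoters, and an AP-1 match (TGANTCA) in 1 of the 8 (Clec12a) and in 6.34%. Clec7a, which was called, and Clec4a2 held none of these motifs, and Clec4d, Clec4a and Clec12a, which were not called, each held a PU box. Called and uncalled receptor genes were thus not separated by these motifs.

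Among the activating receptors, Clec4e showed the largest difference. It encodes Mincle, which binds mycobacterial cord factor and a nuclear protein released by dying cells. It measured 4.07, 6.53, 7.98 and 4.09 CPM in CNT-7 rats 3, 5, 10 and 11. In CNT-T rats 1, 2, 12 and 13 it measured 0.91, 0.95, 0.73 and 2.40 CPM. The lowest CNT-7 rat lay above the highest CNT-T rat, rat 13, which stood apart from its group. The means were 5.67 ± 1.93 and 1.25 ± 0.77 CPM (SD, n = 4 each), a log2 fold change of 2.19 (SE 0.40). These values rest on 113 to 221 counts in CNT-7 and 22 to 67 in CNT-T, so Clec4e was weakly expressed in both groups. Without CNT-T rat 13 the log2 fold change was 2.71.

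Clec4d encodes MCL, a partner of Mincle that also couples to FcRγ and lies beside Clec4e in the genome. It reached 100.3, 220, 196 and 117 CPM in CNT-7 rats 3, 5, 10 and 11, against 114, 93.4, 101 and 140 CPM in CNT-T rats 1, 2, 12 and 13. The groups overlapped, with only CNT-7 rats 5 and 10 above every CNT-T rat. The log2 fold change was 0.50 (SE 0.25), and the means were 158 ± 58.6 and 112 ± 20.5 CPM. Rats 5 and 10 were also the highest CNT-7 rats for Clec4e. Clec4d was called only when CNT-7 rat 3 was left out, with a log2 fold change of 0.67.

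Clec7a encodes Dectin-1, the receptor for fungal β-glucan, which signals from its own tyrosine motif. Its level was 219, 228, 285 and 187 CPM in CNT-7 rats 3, 5, 10 and 11. CNT-T rats 1, 2, 12 and 13 had 123, 103, 146 and 158 CPM. The groups did not overlap, but CNT-7 rat 11 exceeded CNT-T rat 13 by less than the SD of the CNT-7 group. The means were 230 ± 41.0 and 132 ± 24.6 CPM and the log2 fold change was 0.80 (SE 0.16).

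**Figure D1:**
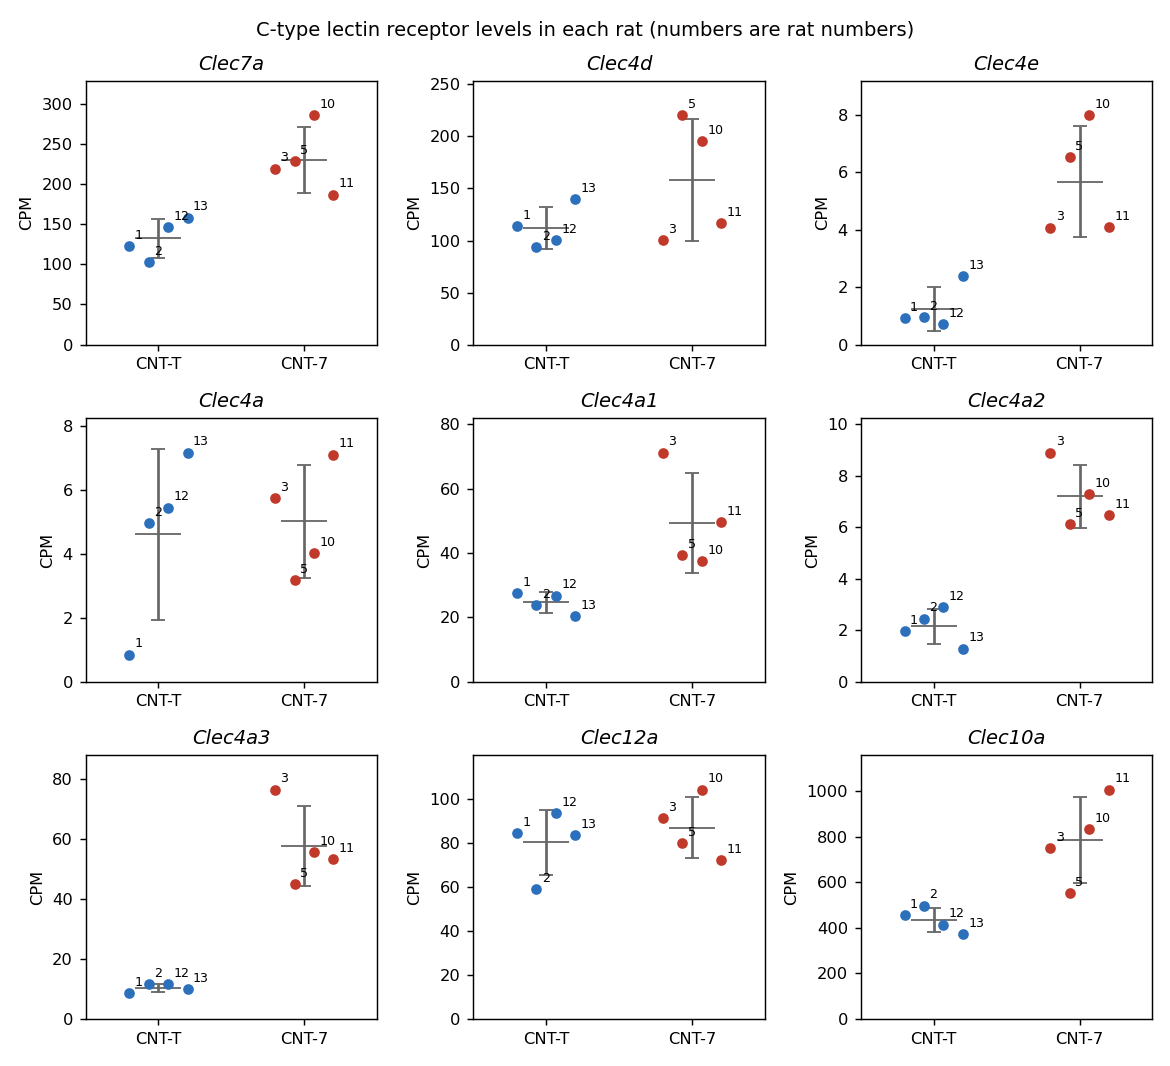
Level of each of the 9 receptor genes in CPM (vertical axis, from 0) in the 4 CNT-T rats (blue) and the 4 CNT-7 rats (red). Each point is 1 rat with its number, the long bar is the mean and the whiskers are the SD. The groups do not overlap for Clec7a, Clec4e, Clec4a1, Clec4a2, Clec4a3 and Clec10a, and they overlap for Clec4d, Clec4a and Clec12a.

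The DCIR genes encode a family of small lectin receptors of dendritic cells and macrophages, several of which carry an inhibitory motif. Clec4a3 had the largest log2 fold change of the 9 receptor genes, 2.47 (SE 0.17). It measured 76.5, 45.1, 55.6 and 53.3 CPM in CNT-7 rats 3, 5, 10 and 11, but only 8.64, 11.6, 11.5 and 9.85 CPM in CNT-T rats 1, 2, 12 and 13. The means, 57.6 ± 13.4 and 10.4 ± 1.42 CPM, differed 5.54-fold. The gap between the groups was wider than the range within either.

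Clec4a2 was low in both groups. It had 8.90, 6.13, 7.29 and 6.48 CPM in CNT-7 rats 3, 5, 10 and 11, and 1.96, 2.45, 2.90 and 1.29 CPM in CNT-T rats 1, 2, 12 and 13. The means of 7.20 ± 1.23 and 2.15 ± 0.69 CPM gave a log2 fold change of 1.74 (SE 0.24), from 36 to 88 counts in the CNT-T rats. The highest CNT-T rat, rat 12, was well below the lowest CNT-7 rat, rat 5.

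Clec4a1 differed less. The CNT-7 rats 3, 5, 10 and 11 had 71.2, 39.4, 37.4 and 49.5 CPM, and the CNT-T rats 1, 2, 12 and 13 had 27.6, 23.8, 26.7 and 20.5 CPM. Every CNT-7 rat was above every CNT-T rat, and CNT-7 rat 3 was well above the other 3. The means were 49.4 ± 15.5 and 24.7 ± 3.23 CPM, and the log2 fold change was 1.0 (SE 0.20), or 0.77 without rat 3.

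Clec4a, in contrast, did not separate the groups. It had 5.75, 3.18, 4.01 and 7.09 CPM in CNT-7 rats 3, 5, 10 and 11, and 0.85, 4.97, 5.44 and 7.16 CPM in CNT-T rats 1, 2, 12 and 13. CNT-T rat 1 was the lowest, with 26 counts against 165 to 200 in the other CNT-T rats. The log2 fold change of 0.12 (SE 0.50) turned to -0.23 without that rat and to -0.092 without CNT-7 rat 11, so no direction can be given. CNT-7 rat 3 had the highest level of each of the other DCIR genes but not of Clec4a.

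The DCIR genes are close relatives, and reads of near-identical transcripts can be divided between them by the quantification. Their counts were therefore also summed. The sum was 93.8 to 162 CPM in CNT-7 (119 ± 30.2) and 38.8 to 46.6 CPM in CNT-T (41.8 ± 3.68), and its log2 fold change was 1.51 (SE 0.16). Without CNT-7 rat 3 it was 1.33. Clec4a3 made up 45.8 to 53.3% of the summed counts in CNT-7 and 22.1 to 27.1% in CNT-T. The share of Clec4a1 was 35.8 to 43.9% in CNT-7 and 52.8 to 70.7% in CNT-T. Shares of Clec4a2 (5.48 to 6.99% and 3.32 to 6.23%) and of Clec4a (3.39 to 6.10% and 2.17 to 18.5%) overlapped between the groups. These shares are not corrected for transcript length, so they compare 1 gene between groups and do not rank the genes.

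Clec12a encodes MICL, an inhibitory receptor that binds uric acid crystals and dead cells. Its level was 91.4, 79.9, 104 and 72.3 CPM in CNT-7 rats 3, 5, 10 and 11, and 84.6, 59.2, 93.7 and 83.6 CPM in CNT-T rats 1, 2, 12 and 13. The groups overlapped over most of their range. The means were 87.0 ± 13.9 and 80.3 ± 14.8 CPM, and the log2 fold change of 0.12 (SE 0.15) was -0.0069 without CNT-T rat 2.

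Clec10a encodes MGL, an endocytic receptor for galactose and N-acetylgalactosamine that is often used as a marker of alternatively activated macrophages and of some dendritic cells. It reached 751, 551, 835 and 1007 CPM in CNT-7 rats 3, 5, 10 and 11. The CNT-T rats 1, 2, 12 and 13 had 456, 498, 415 and 372 CPM. The groups did not overlap, although CNT-7 rat 5 was closer to CNT-T rat 2 than to the next CNT-7 rat. The means were 786 ± 189 and 435 ± 54.1 CPM, a log2 fold change of 0.85 (SE 0.17).

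**Figure D2:**
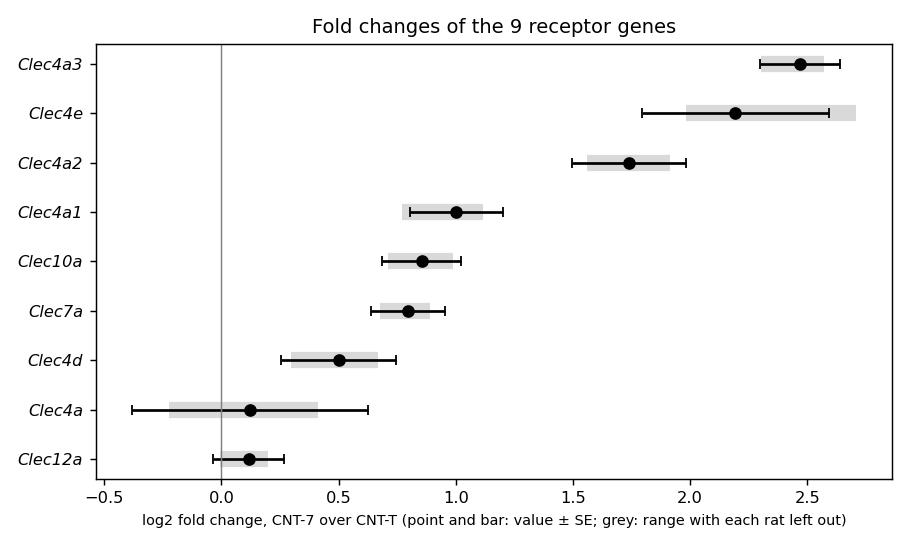
Log2 fold change, CNT-7 over CNT-T (horizontal axis) for the 9 receptor genes, with 4 rats in each group. Points are the fitted values, black bars the SE and grey bands the range when each of the 8 rats is left out in turn. Clec4a3 (2.47) and Clec4e (2.19) lie farthest to the right, and the bands of Clec4a and Clec12a cross 0.

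The rats carry numbers from 1 to 5 and from 10 to 13, and each range holds 2 rats of either group. Mean differences in log2(CPM + 0.1) were therefore also taken within each range. They were 2.54 and 2.34 for Clec4a3, 2.35 and 2.02 for Clec4e, 1.71 and 1.77 for Clec4a2, 1.04 and 0.88 for Clec4a1, 0.99 and 0.60 for Clec7a and 0.53 and 0.35 for Clec4d, in the low and the high numbers respectively. Clec10a differed less among the low numbers (0.43) than among the high ones (1.22), a contrast that was not tested. Clec4a (1.0 and -0.22) and Clec12a (0.27 and -0.028) had opposite signs in the 2 ranges.

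The genes most like the 3 receptor genes with the largest fold changes were sought among 10148 named genes with a mean of at least 1 CPM. Likeness was the root mean square difference of centred log2(CPM + 0.1) over the 8 rats. Clec4a3 was closest to Cd83 (0.171), Hs3st3b1 (0.259) and Fcho1 (0.283). Clec4e was closest to Rnf183 (0.296), the monocyte chemokine gene Ccl2 (0.309) and Vegfa (0.337). Nectin4 (0.147), Selenom (0.156) and Ankrd13b (0.230) were closest to Clec4a2. All 8 rats enter each value, so the difference between the groups is part of the likeness.

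Other receptors of the same fold, outside the 9, were then examined. Of 41 listed, 36 were in the table and 17 could be tested. Of these 17, 10 rose and 2 fell in CNT-7 (70.6% called, beside 27.9% of all genes), and the median log2 fold change was 1.39. This list, like those of signalling and response genes below, was also chosen with earlier results of these data known. Nothing is therefore read from the shares of these lists against the 27.9%. Some of these genes passed the filter on low counts only through CNT-7, where they were high, such as Cd69 with 0 to 4, Mrc2 with 1 to 10, Clec9a with 5 to 17 and Cd72 with 8 to 25 counts in the CNT-T rats. With at least 10 counts required in every rat, 12 were tested, of which 7 rose and 2 fell. Olr1, which encodes LOX-1, the receptor for oxidised LDL, lies directly beside Clec7a. Its level was 586, 822, 1204 and 509 CPM in CNT-7 rats 3, 5, 10 and 11, and 91.1, 144, 145 and 150 CPM in CNT-T rats 1, 2, 12 and 13. All CNT-7 rats were far above the CNT-T rats, with means of 780 ± 312 and 133 ± 27.8 CPM and a log2 fold change of 2.56 (SE 0.28, adjusted p = 0.00047, edgeR).

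Asgr2, a subunit of the asialoglycoprotein receptor and a neighbour of Clec10a, rose from 26.5 ± 6.90 CPM in CNT-T to 105 ± 24.9 CPM in CNT-7 (log2 fold change 1.98, SE 0.22, adjusted p = 0.00055, edgeR). Cd72, an inhibitory receptor best known from B cells, rose from 0.43 ± 0.21 to 2.37 ± 0.94 CPM (2.44, SE 0.41, adjusted p = 0.0032). Clec5a (MDL-1), which couples to the adaptor DAP12, rose from 1.31 ± 0.40 to 3.86 ± 1.90 CPM (1.56, SE 0.36, adjusted p = 0.0145). Ly75, the endocytic receptor DEC-205, rose from 2.95 ± 0.61 to 7.76 ± 0.85 CPM (1.39, SE 0.18, adjusted p = 0.0009). Receptors of the activating, inhibitory and endocytic kinds were thus among those that rose. The other 5 that rose were outside the rule for named genes and are given to complete the count: Cd69 (log2 fold change 4.11), Mrc2 (1.99), Clec9a (1.76), Klrb1b (1.36) and Clec2g (1.09).

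The 2 receptors that fell were Colec12 and Cd302. Colec12, a scavenger receptor with a collectin domain, dropped from 34.2 ± 7.89 CPM in CNT-T to 14.7 ± 3.32 CPM in CNT-7 (log2 fold change -1.22, SE 0.20, adjusted p = 0.0028, edgeR). Cd302 dropped from 213 ± 10.5 to 164 ± 6.91 CPM (-0.38, SE 0.066, adjusted p = 0.0042). Mrc1, the mannose receptor of macrophages, had 163, 89.4, 149 and 162 CPM in CNT-7 rats 3, 5, 10 and 11, and 52.4, 113, 74.6 and 138 CPM in CNT-T rats 1, 2, 12 and 13. The groups overlapped, and its log2 fold change of 0.58 (SE 0.29) was not called (adjusted p = 0.203, edgeR).

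Clec4m, a relative of DC-SIGN, had 0 counts in each CNT-7 rat and 9 to 31 counts in each CNT-T rat (0.58 ± 0.33 CPM). Against a floor of 3 counts per library it was at least 5.33-fold lower in CNT-7. It did not pass the filter on low counts, and with no filter its adjusted p was 0.0033 (edgeR). Clec2d2, a gene of the Clec2 family, was on no list and was chosen after its values were seen, so they are a description and carry no test. It had 12.7 ± 4.42 CPM in CNT-7 and 0.80 ± 0.46 CPM in CNT-T (log2 fold change 3.99, SE 0.41), with only 9 to 38 counts in the CNT-T rats. Genes of this family resemble each other, so how reads were divided among them is not certain.

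**Figure D3:**
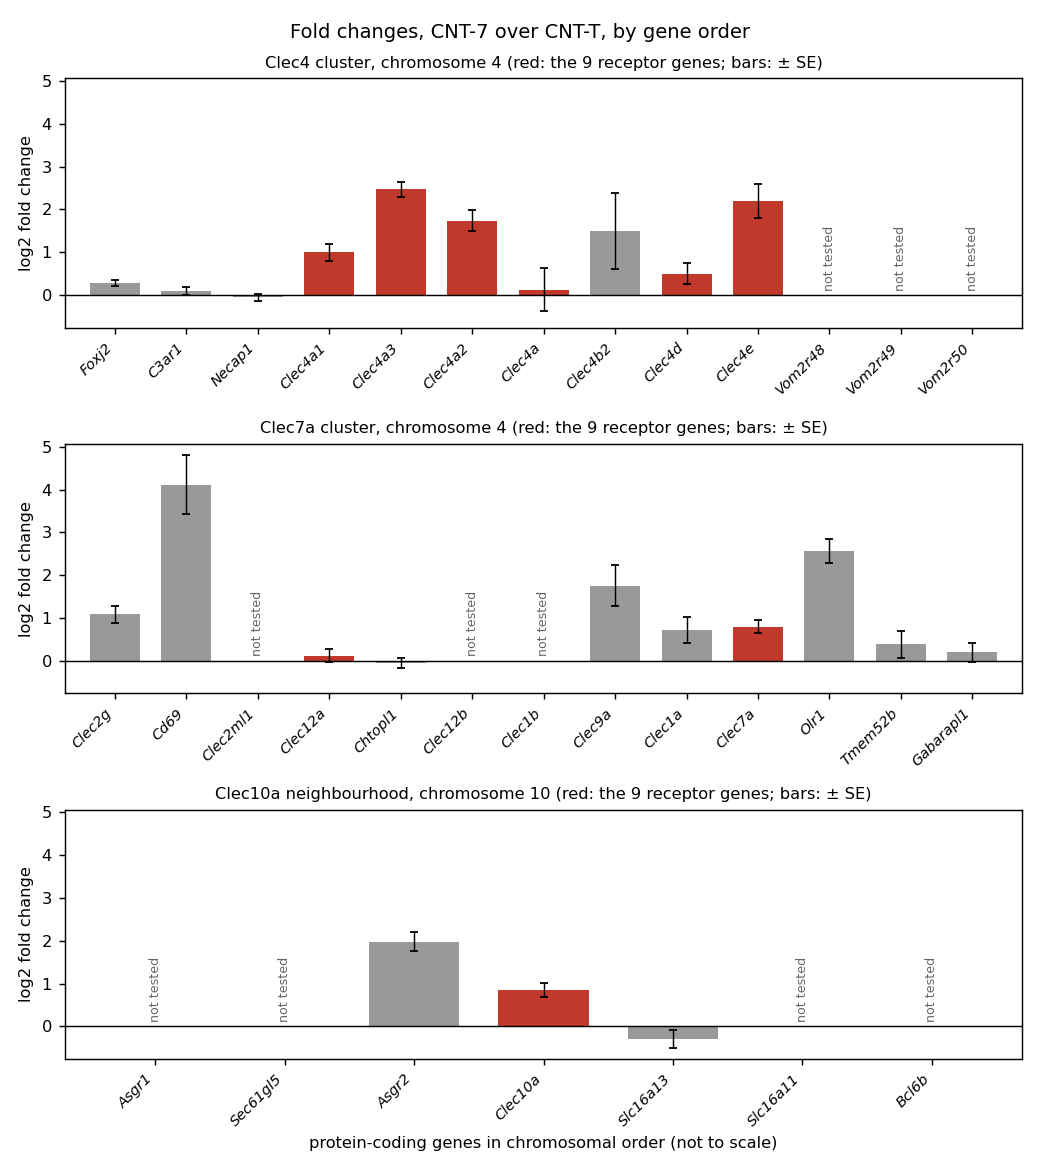
Log2 fold change, CNT-7 over CNT-T (vertical axis, bars ± SE, 4 rats per group) for protein-coding genes in their order on the chromosome around the receptor genes, which are red. Genes marked as not tested were filtered for low counts or are not in the table used here. Olr1 (2.56) stands beside Clec7a and Asgr2 (1.98) beside Clec10a, whereas Necap1 (-0.057), next to Clec4a1, is near 0.

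Of the 9 receptor genes, 8 lie on chromosome 4, in 2 clusters, and Clec10a lies on chromosome 10 (gene order from RefSeq, GRCr8). In the Clec4 cluster the order is Clec4a1, Clec4a3, Clec4a2, Clec4a, Clec4b2, Clec4d and Clec4e, so the uncalled Clec4a, Clec4b2 and Clec4d stand between called genes. Of the 4 other genes tested there, only Foxj2 was called, with a small rise (log2 fold change 0.27, adjusted p = 0.0196, edgeR), and Clec4b2 varied widely among rats (1.5, SE 0.88, adjusted p = 0.27). On the side of Clec4a1, C3ar1 (0.096) and Necap1 (-0.057) were not called. Of the 8 other genes tested around Clec7a and Clec12a, 4 rose, beside 13.9% of all genes. These 4 (Clec2g, Cd69, Clec9a and Olr1) are lectin-like receptors already counted above among the other receptors, so nothing is read from this count. Cd69 and Clec9a, with 0 to 4 and 5 to 17 counts in the CNT-T rats, passed the filter on low counts only through CNT-7. Chtopl1 (-0.051), Clec1a (0.72), Tmem52b (0.38) and Gabarapl1 (0.20), in the same stretch, were not called. Beside Clec10a, Asgr2 rose and Slc16a13 (-0.30) was not called.

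The genes that carry signals from these receptors went in both directions. Of 25 tested, 6 rose and 2 fell (32.0% called, beside 27.9% of all genes), and log2 fold changes ran from -0.81 to 0.93 with a median of 0.057. None of the 3 adaptors was called, also at an unadjusted p under 0.05 or by DESeq2 (0 and 0). Fcer1g, the FcRγ chain needed by Mincle and MCL, had 486 ± 39.1 CPM in CNT-7 and 477 ± 58.5 CPM in CNT-T (log2 fold change 0.025, SE 0.10, adjusted p = 0.89, edgeR). Tyrobp, which encodes DAP12, had 603 ± 64.8 and 650 ± 51.1 CPM (-0.11, SE 0.096, adjusted p = 0.48). The receptor that differed most among those using FcRγ, Clec4e, was thus not accompanied by a detectable difference of its adaptor.

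Of the 5 kinases, 4 rose, beside 13.9% of all genes, and 0 reached a 2-fold change. Syk, the kinase recruited by the activating receptors, went from 229 ± 16.9 CPM in CNT-T to 269 ± 6.79 CPM in CNT-7 (log2 fold change 0.23, SE 0.072, adjusted p = 0.049, edgeR). This call was lost without CNT-7 rat 3, 5 or 10 or CNT-T rat 12 (adjusted p = 0.103 to 0.121). The Src family kinases Lyn (0.31, adjusted p = 0.0169), Fgr (0.61, adjusted p = 0.0064) and Src (0.93, adjusted p = 0.083) also rose, the last of them from 1.79 ± 0.34 to 3.41 ± 1.5 CPM. The call of Src was lost without any rat except CNT-7 rat 11 (adjusted p = 0.107 to 0.221).

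In the CARD9 complex, which links Syk to NF-κB, 0 of 5 genes were called by edgeR and 0 by DESeq2, and 1 had an unadjusted p under 0.05. Card9 itself had 42.8 ± 2.94 CPM in CNT-7 and 48.8 ± 4.48 CPM in CNT-T (-0.19, SE 0.085, adjusted p = 0.147). Without CNT-7 rat 10 or CNT-T rat 13 it was called, with lower levels in CNT-7 (adjusted p = 0.0937 in both). Of the 3 phosphatases 0 were called, at an unadjusted p under 0.05 and by DESeq2 as well. Ptpn6 had 385 ± 16.4 and 337 ± 40.1 CPM (0.19, SE 0.093, adjusted p = 0.182). Among the genes further downstream, Prkcd (0.38, adjusted p = 0.028) rose, and Vav3 (-0.28, adjusted p = 0.069) and Nfatc2 (-0.81, adjusted p = 0.072) fell. Leaving out 1 rat at a time ended the call of Vav3 in 4 and that of Nfatc2 in 6 of 8 fits.

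**Figure D4:**
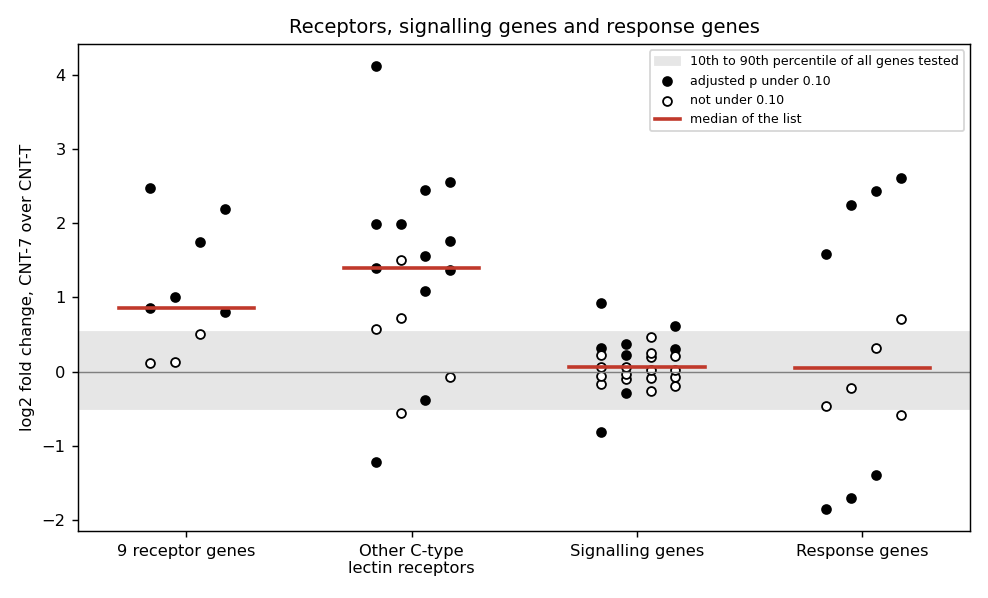
Log2 fold changes, CNT-7 over CNT-T (vertical axis) of the tested genes of 4 lists, 1 point per gene, filled where the adjusted p was under 0.10. Red lines are list medians (0.85 for the 9 receptor genes, 1.39 for other receptors, 0.057 for signalling genes and 0.046 for response genes), and the grey band spans the 10th to the 90th percentile of all genes tested.

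Genes known to be induced through Syk and CARD9 went in both directions. Of 12 tested, 4 rose and 3 fell (58.3% called, beside 27.9% of all genes), and the median was 0.046. With at least 10 counts required in every rat, 9 were tested, of which 2 rose and 2 fell. Ccl2, which attracts monocytes, had 108, 136, 101 and 91.3 CPM in CNT-7 rats 3, 5, 10 and 11, and 21.1, 19.1, 13.2 and 39.1 CPM in CNT-T rats 1, 2, 12 and 13. The groups were far apart (109 ± 19.4 and 23.1 ± 11.2 CPM, log2 fold change 2.24, SE 0.29, adjusted p = 0.0010, edgeR). As for Clec4e, CNT-T rat 13 was the highest of its group.

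Egr2, an early response factor of macrophages, rose from 1.99 ± 0.35 CPM in CNT-T to 5.98 ± 2.02 CPM in CNT-7 (log2 fold change 1.59, SE 0.25, adjusted p = 0.0024, edgeR). Its relative Egr1 fell from 9.11 ± 2.42 to 2.52 ± 0.91 CPM (-1.86, SE 0.28, adjusted p = 0.0021). Cxcl2, a neutrophil chemokine gene, fell from 32.7 ± 25.3 to 12.4 ± 4.96 CPM (-1.40, SE 0.49, adjusted p = 0.0736), but CNT-T rat 13 alone had 68.9 CPM, and without it the value was -0.74 and not called (adjusted p = 0.186). The Cxcl2 call was also lost without CNT-7 rat 3, 10 or 11 or CNT-T rat 2 (adjusted p = 0.119 to 0.163, edgeR) and with low against high rat numbers as a block (adjusted p = 0.104). Il1b (2.61) and Egr3 (2.44) rose and Il23a (-1.71) fell at group means of at most 1.45 CPM. In the CNT-T rats Il1b had 4 to 13 and Egr3 3 to 10 counts, and both passed the filter on low counts only through CNT-7. Il23a, with 7 to 17 counts in the CNT-7 rats, passed it only through CNT-T. These 3 genes were outside the rule for named genes. Tnf (-0.46), Cxcl1 (-0.58), Nlrp3 (-0.22), Ccl3 (0.71) and Ccl4 (0.32) were not called.

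Markers of macrophages and of other cells were set beside these values. Of 9 macrophage markers 8 were in the table and all 8 passed the filter on low counts. Their summed level was 15239 to 22413 CPM in CNT-7 and 23721 to 33962 CPM in CNT-T, without overlap, and Lyz2 made up 80.0 to 88.6% of it. Cd14 and Gata6 rose, and Csf1r, Adgre1, Cd68 and Fcgr1a fell. The summed level of 6 monocyte markers was 2720 to 3405 CPM in CNT-7 and 3569 to 3602 CPM in CNT-T, again without overlap. Among them Cx3cr1 (log2 fold change 4.12) and Fcnb (2.95) rose, and Plac8 (-0.65) fell. Fcnb had 0 to 11 counts in the CNT-T rats and passed the filter on low counts only through CNT-7.

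Of 8 dendritic cell markers, 5 were tested and 3 rose, Ccr7 (log2 fold change 3.80), Clec9a (1.76) and Batf3 (0.78). Zbtb46 (-0.22) and Cd1d1 (-0.040) were not called. Ccr7, with 0 to 9, and Clec9a, with 5 to 17 counts in the CNT-T rats, passed the filter on low counts only through CNT-7. The sum of the 8 markers was 73.7 to 117 CPM in CNT-7 and 85.5 to 100.4 CPM in CNT-T, of which Cd1d1 made up 80.4 to 91.4%. Without Cd1d1 it was 13.5 to 19.3 CPM in CNT-7 and 7.34 to 15.7 CPM in CNT-T. Flt3, Xcr1 and Siglech had at most 13 counts in any rat. The part of monocytes and dendritic cells in the DCIR, Clec10a and Ly75 values was not tested.

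Markers of other cell types were mostly low. Of 10 neutrophil markers 5 were tested, of which 1 fell (S100a8) and the others were not called by edgeR. The marker Mpo was at 0 in every rat, and the sum was 34 to 63.1 CPM in CNT-7 and 26.3 to 68.5 CPM in CNT-T. Csf3r made up 68.7 to 92.9% of it, and without Csf3r it was 3.08 to 9.65 CPM in CNT-7 and 6.66 to 11.1 CPM in CNT-T. Eosinophil markers summed to 0.18 to 9.33 CPM in CNT-7 and 0.11 to 0.36 CPM in CNT-T, with Prg3 and Epx at 0 in every rat. The highest value was that of CNT-7 rat 3, which also had the highest Clec4a1, Clec4a2 and Clec4a3, and without this rat their log2 fold changes were 0.77, 1.62 and 2.30. T or NK cell markers summed to 4.38 to 11.6 CPM and 4.97 to 5.60 CPM, B cell markers to 0.16 to 2.78 CPM and 0.15 to 0.46 CPM, and mast cell markers to 0.56 to 1.41 CPM and 0.030 to 2.08 CPM, in CNT-7 and CNT-T respectively. Mesothelial markers reached at most 0.30 CPM, with Upk3b and Wt1 at 0 in every rat.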

How the data were processed

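RNA of sorted peritoneal macrophages from 4 CNT-7 and 4 CNT-T rats was sequenced in paired ends from stranded mRNA libraries. The authors quantified the reads with Salmon (version not given in the sources used here) against Ensembl rat cDNA sequences of Rnor_6.0, imported them with tximeta, and deposited estimated counts per gene, already whole numbers. Groups and rat numbers were read from the labels. All 8 columns were used, and no total or unnamed row entered the library sizes. The replicates are separate rats.

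Here the estimated counts were compared with edgeR (version 4.0.16, quasi-likelihood test, under R 4.3.3), with TMM factors, the filter of filterByExpr (minimum count 10, minimum total 15) and Benjamini-Hochberg adjustment over all genes, called under 0.10. SEs were obtained from each log2 fold change and its F statistic. DESeq2 1.42.0 and other settings were alternatives. The steps were tested on simulated data. Reads were not counted by molecular identifier, so floors cover counting error only. The 9 receptor genes, the lists, the naming rule and the alternatives were chosen with earlier results of these data known. The naming rule took the 9 receptor genes, Mrc1, Fcer1g, Tyrobp, Syk, Card9 and Ptpn6, and of each other list the 5 largest called rises and the 5 largest called falls with a mean of at least 1 CPM. Gene order and promoters came from RefSeq (GRCr8), whose build differs from that of the counts. Upstream sequences were compared in pairs by end-to-end alignment, in which gaps were allowed at a penalty. No transcript lengths were used, so levels are not compared between genes. Some listed genes (Clec6a, Cd209b, Cd209d, Cd93, Klrb1a, Nos2, Itgam, Ccr2, Treml4 and Cd79a) were not analysed here. Values of some listed genes are not reported here.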

Additional observations from a re-analysis of the deposited data

Results flagged for a closer look

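Within each group of 4 rats, the highest or the lowest rat was examined for its distance from the others, as the gap to its nearest neighbour over the whole spread of those 4 values (Dixon's ratio). Of 66 groups of values, 4 exceeded the critical value for 4 samples, and chance alone gives about 3.3. Clec4e was high in CNT-T rat 13, at 2.40 CPM against 0.73 to 0.95 in the other CNT-T rats (ratio 0.868). Olr1 was low in CNT-T rat 1, at 91.1 CPM against 144 to 150 (ratio 0.895). Egr1 was high in CNT-7 rat 10, at 3.86 CPM against 1.92 to 2.18 (ratio 0.867). Nfatc2 was low in CNT-7 rat 3, at 1.08 CPM against 1.44 to 1.48 (ratio 0.899). Without the rat concerned, Clec4e, Olr1 and Egr1 kept their direction and their call, and Nfatc2 was no longer called.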

How the results depend on the processing

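Counts of called genes among the 9 receptor genes were 4 to 6 over 8 other settings and 6 to 7 with each rat left out. For other receptors they were 9 to 13 and 12 to 15, and the summed DCIR log2 fold change was 1.51 to 1.52 and 1.33 to 1.61. A minimum 2-fold change left 1006 genes in all (552 higher and 454 lower) and 0 signalling genes, of which none reached that size at an unadjusted p under 0.05 in edgeR (0) or in DESeq2 (0). An adjusted p under 0.05 left 5 signalling genes. At least 10 counts in every rat left 4 response genes, because fewer genes (9) were then tested. With each rat left out, 2578 to 3515 genes, 4 to 9 signalling genes and 6 to 9 response genes were called, and the cause of these changes was not tested. The direction turned for Clec4a without CNT-7 rat 11 (-0.092) and CNT-T rat 1 (-0.23, highest 0.41), for Clec12a without CNT-T rat 2 (-0.0069, highest 0.20), and for Fcer1g without CNT-7 rat 5 (-0.034) and CNT-T rat 13 (-0.055, highest 0.087), and none of these 3 genes was called. Mrc1 was called without CNT-T rat 13 (adjusted p = 0.086, edgeR). Over 33 named genes and 527 fits, 476 kept direction and call, 42 lost the call and 4 gained it. DESeq2 called 3633 genes. All 9 receptor genes had positive fold changes under each of the 4 scalings, in which the median of all genes was at most 0.0083. No paired analysis was possible because the rat numbers of CNT-7 and CNT-T are all different, and blocking on low against high rat numbers left 6 of the 9 called. With 22 to 67 counts for Clec4e in the CNT-T rats, depth limits that fold change.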
